A study of Mus musculus with 13 samples.

Results

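Regions that were among the most accessible chromatin of the proximal forelimb, and in no list of the distal forelimb or the forebrain, were taken from ATAC-seq peak calls of mouse embryos at E12.5. Of 112414 regions, merged over 12 libraries from the 50000 strongest regions of each, 2046 were present in the lists of all 4 proximal forelimb (PFL) libraries and in none of the 4 distal forelimb (DFL) and 4 forebrain (FB) lists, which is 1.82% of the merged regions. They are named PFL-listed regions here. They were chosen by their measured rank in these libraries, so their presence in PFL and their absence from the other lists is a description and no finding.

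The libraries came from wild-type (wt) embryos and from embryos homozygous for allele 542, all of the B6CBAF1 background, with 2 replicates for each genotype and tissue. In allele 542 a single copy of the enhancer element II1, followed by an HBB promoter and a LacZ reporter, was inserted on the telomeric side of the HoxD cluster, in a part of chromosome 2 that no PFL-listed region covers. Each replicate was a pool of dissected tissue from several embryos. As whole tissue was used, every value is a mixture over cell types. In the limb these are muscle precursors, cartilage, connective tissue, vessels, blood and skin. Fewer open cells of a type cannot be told apart from weaker opening in each cell. A further wt DFL library, an earlier sample analysed anew, served as a check and did not enter the choice.

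ATAC-seq reads the sites at which the Tn5 transposase can insert into chromatin, and regions far from promoters that are open in few tissues are often enhancers. The part of the limb nearest the body carries MEIS and PBX homeodomain proteins of the TALE class and HOX proteins of the earlier groups, while the HOXA13 and HOXD13 proteins mark the digit-forming distal part. Muscle precursors migrate into the limb from the somites, and the bHLH factors MYF5, MYOD1 and MYOG, which bind short sequences named E-boxes, switch on the muscle genes. At this stage the muscle masses lie mainly in the proximal part.

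Short sequences were compared first, because the choice of regions did not use them. In a window of 300 bp on the strongest PFL summit, 38.6% of PFL-listed regions held CAGCTG, the E-box form preferred by myogenic bHLH factors, against 25.5% of all merged regions, 17.8% of the 2120 regions listed in the same way for DFL and 26.3% of the 9793 for FB. The E-box form CAGATG, which TCF4 and TWIST proteins also bind, was in 38.8% of the windows against 27.4% of all merged regions. At least 1 of both forms was in 1313 windows (64.2%; all merged regions 45.6%, DFL-listed 37.3%), and 2 or more copies of CAGCTG were in 229 (11.2%; all merged regions 4.49%, DFL-listed 1.23%). These shares are descriptions without a test, since regions of the same libraries are not replicates. The homeodomain motif TAATTA went the other way, with 4.94% of the PFL-listed windows against 14.1% of all merged regions, 23.1% in DFL and 32.8% in FB.

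The following windows are printed because they show this arrangement at high fold, at muscle genes, or where the nearest gene has many PFL-listed regions. They are the plus strand of GRCm38, 5' to 3', and capitals mark CAGCTG or CAGATG on either strand (CATCTG is the complement of the latter). The first lies near Cxcl15, a chemokine gene, and the next near C1qtnf3, a gene of a secreted C1q-like protein, and both belong to the 12 regions of highest mean fold. Met, the receptor that muscle precursors need to migrate, has a region with a pair of CAGCTG copies, and Neb, the gene of the giant thin-filament protein nebulin, has one in an intron and one at its start. The last 2, of about the median fold, lie 436813 bp from the start of Pcdh20, a protocadherin gene, and in an intron of Robo1, the receptor of SLIT guidance cues.
Cxcl15, intergenic, chr5:90819870-90820169: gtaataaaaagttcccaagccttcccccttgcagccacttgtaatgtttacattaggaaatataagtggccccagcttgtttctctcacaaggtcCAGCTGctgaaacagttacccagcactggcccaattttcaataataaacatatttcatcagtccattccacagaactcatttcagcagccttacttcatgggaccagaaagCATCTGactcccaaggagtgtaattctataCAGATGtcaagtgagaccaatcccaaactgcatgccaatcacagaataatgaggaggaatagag
C1qtnf3, intergenic, chr15:10940256-10940555: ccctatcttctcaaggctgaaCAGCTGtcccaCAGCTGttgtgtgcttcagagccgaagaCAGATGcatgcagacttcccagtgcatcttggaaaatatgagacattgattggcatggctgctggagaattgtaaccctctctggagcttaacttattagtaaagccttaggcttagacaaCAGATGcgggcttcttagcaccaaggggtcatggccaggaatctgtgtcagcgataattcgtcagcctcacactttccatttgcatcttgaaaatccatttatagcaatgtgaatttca
Met, intron, chr6:17516143-17516442: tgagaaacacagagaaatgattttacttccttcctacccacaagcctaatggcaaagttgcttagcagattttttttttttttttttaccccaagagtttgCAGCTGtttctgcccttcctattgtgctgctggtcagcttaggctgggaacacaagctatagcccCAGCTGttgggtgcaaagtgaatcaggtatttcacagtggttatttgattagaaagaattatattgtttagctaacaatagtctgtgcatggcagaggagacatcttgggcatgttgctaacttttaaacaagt
Neb, intron, chr2:52319039-52319338: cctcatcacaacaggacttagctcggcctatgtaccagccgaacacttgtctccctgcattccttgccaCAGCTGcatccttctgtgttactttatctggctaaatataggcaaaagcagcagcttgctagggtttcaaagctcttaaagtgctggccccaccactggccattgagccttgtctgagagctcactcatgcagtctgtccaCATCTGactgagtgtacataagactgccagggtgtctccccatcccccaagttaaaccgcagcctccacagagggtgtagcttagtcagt
Neb, promoter, chr2:52335162-52335461: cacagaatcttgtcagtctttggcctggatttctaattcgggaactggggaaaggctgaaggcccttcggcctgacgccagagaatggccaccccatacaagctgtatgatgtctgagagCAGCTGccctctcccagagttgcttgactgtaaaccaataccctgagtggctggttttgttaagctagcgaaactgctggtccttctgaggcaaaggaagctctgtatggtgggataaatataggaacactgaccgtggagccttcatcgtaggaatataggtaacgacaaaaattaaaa
Pcdh20, intergenic, chr14:88908059-88908358: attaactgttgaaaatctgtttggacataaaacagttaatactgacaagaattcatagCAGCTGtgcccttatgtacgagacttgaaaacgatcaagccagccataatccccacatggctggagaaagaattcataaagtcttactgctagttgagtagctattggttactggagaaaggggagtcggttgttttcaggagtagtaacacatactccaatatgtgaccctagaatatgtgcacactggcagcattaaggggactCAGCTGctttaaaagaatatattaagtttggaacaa
Robo1, intron, chr16:72350105-72350404: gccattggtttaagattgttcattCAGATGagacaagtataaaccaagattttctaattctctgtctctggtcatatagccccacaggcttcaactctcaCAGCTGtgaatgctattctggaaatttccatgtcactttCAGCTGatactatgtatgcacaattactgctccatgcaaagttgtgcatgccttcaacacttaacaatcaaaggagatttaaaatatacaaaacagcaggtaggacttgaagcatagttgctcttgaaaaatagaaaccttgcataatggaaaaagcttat

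Not every strong region held an E-box of these forms. Of the 12 of highest mean fold, the windows nearest to Styk1, Brinp3, Ptn, Dnah5 and Epha7 held neither form. CAGCTG was in those nearest to Cxcl15, C1qtnf3, Msantd4 and Hmgcll1, and CAGATG alone in those nearest to Trps1, Kif20b and Mmp16. The region of highest mean fold, in an intron of Styk1, a gene of a kinase-like membrane protein, is shown for contrast. Its window had none of both, and the capitals mark a match to TGATTNAT, a composite sequence bound by PBX with HOX proteins. The window also held matches to GGAATG of TEAD factors and TGANTCA of AP-1, which are not marked.
Styk1, intron, chr6:131340059-131340358: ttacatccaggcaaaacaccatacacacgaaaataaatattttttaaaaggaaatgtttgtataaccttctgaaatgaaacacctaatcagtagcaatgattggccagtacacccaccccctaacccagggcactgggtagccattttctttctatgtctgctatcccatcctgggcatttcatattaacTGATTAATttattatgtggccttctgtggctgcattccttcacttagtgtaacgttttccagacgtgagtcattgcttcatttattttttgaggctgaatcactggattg

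The 18 motifs searched, on both strands, differed in how the PFL-listed windows stood to the other sets. Those of TEAD factors (GGAATG, 27.8% against 20% of all merged regions) and RUNX factors (TGTGGT, 27.4% against 19.7%) were also more frequent than in DFL (20.8% and 20%) and in FB (16.5% in each). The motif of MEIS and other TALE proteins, TGACAG, was in 26.3% of the windows, above DFL (13.8%) and all merged regions (22.1%) but below FB (30.1%). A TALE match can run into an E-box, as they share the letters CAG, and such cases were counted under both. The PBX with HOX sequence was in 8.50% against 5.09%. The sequence CAATAAA, preferred by HOX13 and related posterior HOX proteins, was in 6.84% of the PFL-listed windows, close to all merged regions (7.19%), and in 20% of the DFL-listed ones. A match says only that these letters stand in the window and not that a factor binds there.

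**Figure D1:**
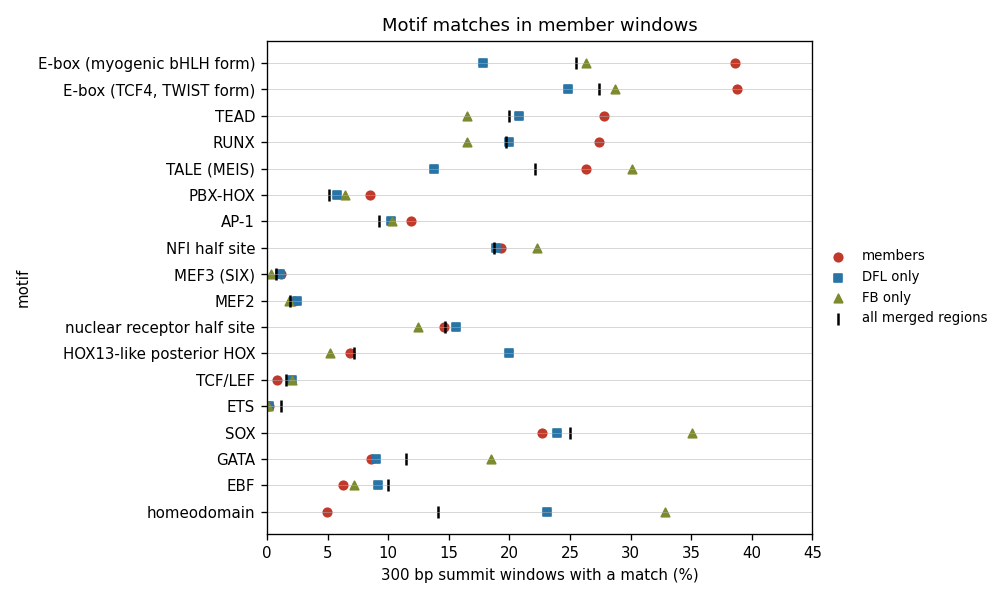
Share of 300 bp windows with at least 1 match (x axis, %) for each of 18 motifs (y axis, by name) in PFL-listed regions (members, red circles), DFL-listed regions (blue squares), FB-listed regions (green triangles) and all merged regions (black ticks). Both E-box forms are highest in the PFL-listed windows, at 38.6% and 38.8%, and the homeodomain motif is lowest there, at 4.94%.

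AP-1 (TGANTCA) was in 11.9% of the windows against 9.24% of all merged regions, NFI (TTGGCA) in 19.3% against 18.7%, and the nuclear receptor sequence AGGTCA in 14.6% against 14.7%. The muscle-related sequences of MEF2 (2.25% against 1.88%) and MEF3 (1.17% against 0.713%) were rare in every set, if somewhat above all merged regions. This was not particular to PFL, as DFL-listed windows had 2.45% for MEF2 and 1.08% for MEF3. SOX (22.7% against 25%), GATA (8.60% against 11.5%), EBF (6.26% against 10.0%), TCF/LEF (0.831% against 1.54%) and ETS (0.196% against 1.13%) were less frequent than in all merged regions.

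Base composition and promoters moved with these sets, the PFL-listed windows having a median GC content of 43.7% against 47.0% of all merged regions. Within windows of 40% to 48% GC outside promoters the order was retained, with CAGCTG in 36.1% of 963 PFL-listed windows, 24.0% of 44496 merged regions and 19.4% of 1074 DFL-listed windows. In the same windows TAATTA was in 5.40%, 17.5% and 21.6%. The share with CAGCTG was 39.5% in the upper quartile of PFL-listed regions by mean fold and 39.1% in the lower quartile. Without the 276 regions in the list of the additional wt DFL library it was 39.7% (1770 regions), with TAATTA in 4.97%. CAGCTG was in 42.7% of the 461 regions never called in DFL or FB and in 37.4% of the other 1585.

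The matches lay close to the summit. CAGCTG was in 12.95% and 12.6% of PFL-listed regions in the 50 bp on each side of the summit, and in 1.56% and 3.08% in the bins centred 475 bp before and after it. All merged regions had 6.84% and 6.92% in the bins at the summit and 2.24% and 2.26% at 475 bp. TAATTA showed a dip in the PFL-listed regions, with 0.880% and 0.684% next to the summit and 1.71% and 1.91% at 475 bp, where all merged regions had 3.21%, 3.16%, 1.79% and 1.87%.

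**Figure D2:**
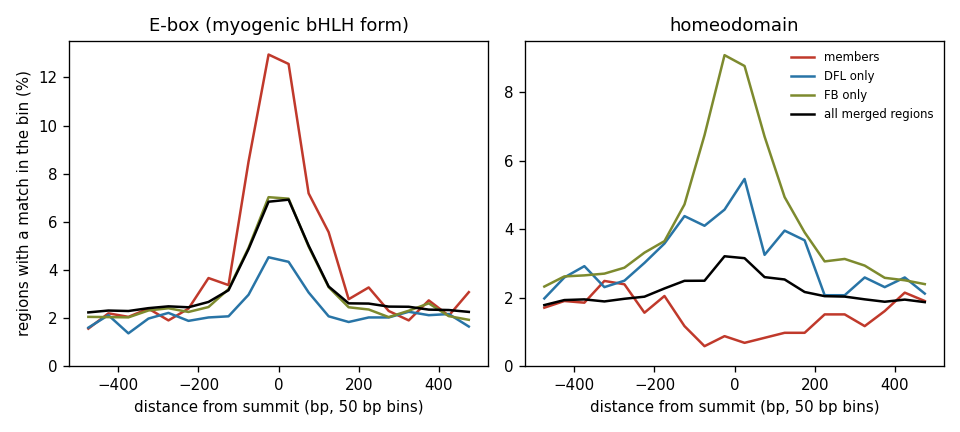
Share of regions with a match in each 50 bp bin (y axis, %) by distance of the bin from the summit (x axis, bp) for the myogenic E-box form (left) and the homeodomain motif (right), in PFL-listed (members, red), DFL-listed (blue), FB-listed (green) and all merged regions (black). The E-box curve of the PFL-listed regions peaks at the summit at 12.95%, and their homeodomain curve dips there to under 1%, while it peaks in DFL and FB.

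The genes beside these regions were read next. The nearest start of a protein-coding gene belonged to the list of 31 located genes of muscle precursors and early muscle for 20 PFL-listed regions (0.978%), against 0.321% of all merged regions and 0.283% of DFL-listed ones. Outside the list of the additional wt DFL library 17 remained (0.960% against 0.370%). They stood beside 14 of the genes, with 3 near Msc, 2 each near Eya1, Mef2c, Myod1 and Neb, and 1 each near Des, Myog, Chrng, Pax3, Myh3, Myf5, Pax7, Met and Cdon. A CAGCTG was in 12 of the 20 windows, a CAGATG in 5, and at least 1 of both in 16. Of all 361 merged regions whose nearest start belonged to this list, 32.1% held CAGCTG.

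The fold over the local background is the ratio of tags under the summit to a background level, with a small constant added to both. That level was the surrounding one or, at part of the regions, a level shared over the library. Met had folds of 7.61 and 7.76 in wt PFL and 8.62 and 6.68 in 542 PFL. The same place was called at lower rank in 3 DFL libraries, at 3.66, 4.38 and 4.15. By the rule, calls of the DFL and FB groups at PFL-listed regions rank lower. PFL values above them are therefore no finding, here and below.

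At Neb the intronic region (chr2:52318913-52319545, 15945 bp from the start) had 8.20 and 6.79 in wt PFL and 7.02 and 6.72 in 542 PFL. The region over its promoter had 9.33 and 6.63 in wt and 5.54 and 4.99 in 542. Neither place was called in any DFL or FB library of the groups, and 8 of the 20 regions near muscle genes shared this, against 22.5% of all PFL-listed regions. Of the 20, 11 were called in a DFL library and 6 in an FB library, against 75.1% and 17.1% of all PFL-listed regions.

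A further 3 regions of this list were picked with their values in view, since they touch the regulators themselves. The region over the promoter of Myog, the factor of terminal muscle differentiation, had folds of 5.64 and 7.23 in wt PFL and 6.88 and 5.94 in 542 PFL, and was called in 2 DFL libraries at 2.60 and 3.59. Its window held a MEF3 and a TEAD match and no E-box of these forms. A region 34759 bp from the start of Myod1, with a CAGCTG, had 5.47 and 4.82 in wt and 9.73 and 5.59 in 542, and a region 29280 bp from Myf5, with a CAGATG, had 6.60 and 6.64 in wt and 7.65 and 5.60 in 542. The Myod1 region was called in no DFL or FB library, whereas the Myf5 region was called at lower rank in all 4 DFL libraries, from 2.58 to 4.55. It was also called in 1 wt FB library, at 2.22.

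The starts of the muscle genes were read as well. Of the 31 genes, 23 to 26 had a call at the start in the 4 PFL libraries, 18 to 20 in the 4 DFL libraries and 15 to 18 in FB, with folds summing to 161 to 181, 135 to 148 and 133 to 141. The additional wt DFL library, the deepest, had 24 calls and a sum of 180.5, within the PFL ranges, so the PFL and DFL groups differed only without it. Over all 19418 coding genes the share with a call at the start was 66.9% to 69.1% in PFL, 67.5% to 69.0% in the DFL groups, 66.8% to 67.8% in FB and 69.9% in the additional library. The part of the number of muscle cells and of depth in this was not tested.

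The list of connective tissue, tendon and joint genes was nearest to 17 PFL-listed regions (0.831%), against 0.452% of all merged regions and 0.755% of DFL-listed ones. This list also held Tcf4, the gene of the E-box-binding protein TCF4, with 2 of the 17, and the shares were not taken without it. The 17 included 2 near Osr1, a regulator of limb connective tissue, 2 near Col5a2 and 1 near Col1a2, both fibrillar collagen genes. The strongest, 399152 bp from Tbx3, had 6.94 and 8.56 in wt PFL and 9.16 and 7.62 in 542 PFL, and was called at 3.66 and 2.63 in wt DFL and at 9.10 in the additional wt DFL library, above 3 of the 4 PFL values. Of these windows 2 held CAGCTG and 6 held CAGATG.

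Cartilage genes were nearest to 12 regions (0.587% against 0.400%), but within 100 kb of any start of these genes the shares were 0.342% and 0.355%. Of these, 4 lay 410876 to 842769 bp from Sox9, the master regulator of cartilage, and 2 at Col9a1, a collagen gene of cartilage. A region in an intron of Col11a1, another cartilage collagen gene, was the strongest of all listed groups, with 9.39 and 9.26 in wt PFL and 9.70 and 10.98 in 542 PFL. It was called at 4.39, 4.38 and 3.13 in the DFL groups, but at 13.47 in the additional wt DFL library, above every PFL value. That library had a fold above every PFL value at 4 of the 12 cartilage regions. CAGCTG was in 1 of these 12 windows.

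Genes of proximal limb patterning were nearest to 6 regions (0.293% against 0.349% of all merged regions and 0.425% of DFL-listed ones), a share below the background. The strongest, 415112 bp from Meis1, had 8.02 and 8.45 in wt PFL and 8.91 and 7.39 in 542 PFL, with 6.43 in the additional wt DFL library. A region 52645 bp from Tbx5, the gene that starts forelimb outgrowth, had 6.29, 6.62, 6.12 and 5.52 in the same order. It was called at 3.53 and 4.03 in wt DFL and at 7.94 in the additional wt DFL library, above every PFL value, so the DFL libraries differed at this place. A further one lay in an intron of Rarb, a retinoic acid receptor gene. The distal limb list was nearest to 2 regions, both far from Hand2, which is 0.0978% against 0.613% of DFL-listed regions.

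Signalling genes of the hedgehog, WNT, BMP and FGF pathways were nearest to 17 regions (0.831% against 0.697%), with 0.489% against 0.624% within 100 kb. Secreted WNT inhibitors were among them, with 4 near Dkk2, 2 near Sfrp2 and 1 near Dkk1. The strongest lay in an intron of Bmpr1b, a BMP receptor gene of the early limb skeleton, with a mean fold of 8.73. Vessel genes had 3 regions (0.147% against 0.157%), blood genes 4 (0.196% against 0.104%), nerve sheath genes 2 (0.0978% against 0.0721%), skin genes 1 (0.0489% against 0.121%) and forebrain genes 0 (against 0.223%). Vessel, blood and nerve sheath genes also changed side within 100 kb, with 0.244% against 0.224%, 0.0489% against 0.198% and 0.0489% against 0.138%.

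**Figure D3:**
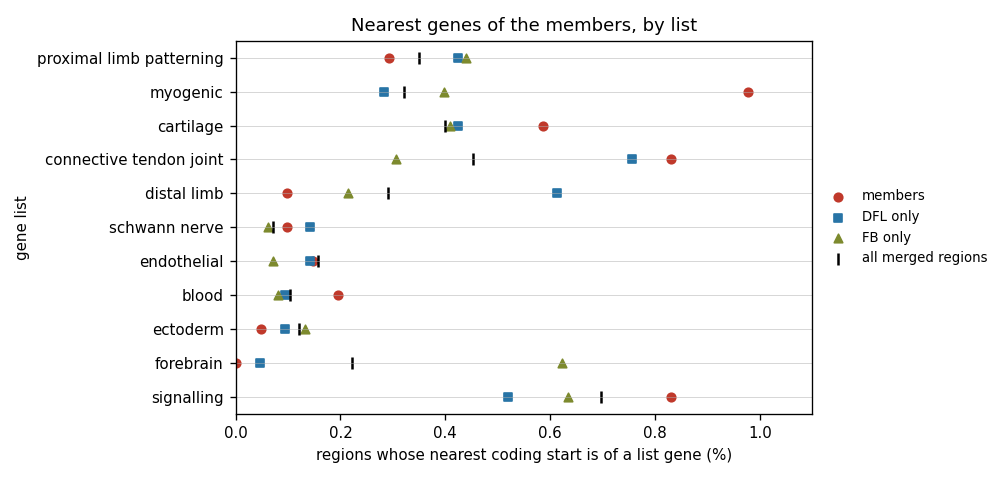
Share of regions whose nearest protein-coding start is of a gene in each of 11 lists (x axis, %; y axis, list), for PFL-listed (members, red circles), DFL-listed (blue squares), FB-listed (green triangles) and all merged regions (black ticks). The myogenic list is at 0.978% of the PFL-listed regions and at 0.321% of all merged regions, and the distal limb list is at 0.0978% and 0.290%.

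Most PFL-listed regions were far from promoters. Within 1 kb of a coding start lay 38 (1.86%), against 12.8% of all merged regions, while 967 (47.3%) lay in introns and 979 (47.8%) between genes. The median distance to the nearest coding start was 72339 bp (43242 bp for all merged regions, 81638 bp for DFL-listed and 82868 bp for FB-listed ones), and 849 regions (41.5%) lay beyond 100 kb. They were spread over 1505 nearest genes, of which 1140 had a single region, and 15.4% had another PFL-listed region within 50 kb, against 13.3% in DFL and 48.6% in FB.

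The 4 strongest of the 38 promoter regions were at Gas2 (mean fold 8.74), which encodes a protein linking actin and microtubules, Map3k7cl (7.86), Trim55 (7.80), the gene of a muscle ubiquitin ligase of the sarcomere, and Lsm6 (7.68), which encodes an RNA-binding ring subunit. Lsm6 had 7.40 and 7.99 in wt PFL and 7.52 and 7.79 in 542 PFL and was not called in DFL or FB. Gas2 was called in all 4 DFL libraries at 3.50 to 4.25, with a lowest PFL value of 7.54. CAGCTG was in 19 of the 38 promoter windows.

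The 8 genes with the most regions are given with what they encode. Robo1 had 8 (mean folds 4.42 to 8.23, 6 of them in introns), Pcdh20 7 (5.09 to 9.80, over 2680201 bp), and Tenm3, a teneurin gene, Ptprd, a receptor phosphatase gene, Bmper, whose secreted product binds BMPs, and Adamtsl1, a matrix protein gene, had 6 each. Epha7, an ephrin receptor gene, and Cadm2, a cell adhesion gene, had 5 each. Wide gene surroundings hold many regions of any kind: Robo1 had 167 merged regions in all, so that 4.79% of them were PFL-listed, and Tenm3 had 175 (3.43%).

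Bmper and Adamtsl1 had the largest shares of the 8, with 9.68% of 62 and 11.3% of 53 merged regions, against 1.82% over the genome. The 6 regions of Bmper all lay in its introns within 132591 bp, with mean folds between 5.48 and 5.91. These genes were picked for their number of regions, and the shares are therefore given without a test.

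The folds themselves were moderate. Over the 4 PFL libraries the mean fold had a median of 6.19 (10th to 90th percentile 5.01 to 8.05, highest 14.1), with a median SD of 0.942 (n = 4), against a median of 8.10 for all 33411 regions in the 4 PFL lists. Only 24 regions reached a mean of 10. Their width had a median of 743 bp, against 660 bp for all merged regions.

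The Styk1 region (chr6:131339805-131340537) led with 12.66 and 11.53 in wt PFL and 16.51 and 15.58 in 542 PFL. A region between genes nearest to Mmp16, a membrane-bound matrix protease gene, varied least of the 12 strongest, with 10.83 and 10.54 in wt and 11.23 and 10.71 in 542 (SD 0.295, n = 4). One 903828 bp from Trps1, a transcriptional repressor gene of cartilage and hair, varied most, from 8.53 in wt to 14.80 in 542 (SD 2.58, n = 4).

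Others of the 12 were nearest to Brinp3 (12.45 ± 2.184, SD, n = 4), Msantd4 (11.8 ± 2.02), Ptn (11.7 ± 1.54), which encodes the growth factor pleiotrophin, Dnah5 (11.6 ± 1.04), Hmgcll1 (11.2 ± 1.93), Epha7 (10.9 ± 2.181) and Kif20b (10.9 ± 2.27). The nearest gene need not be the host, and the Msantd4 region lay in an intron of Gria4. In each of the 12 a DFL library of the groups also had a call, at 2.34 to 4.25. That these lay below every PFL value follows largely from the choice by rank and by high PFL fold.

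**Figure D4:**
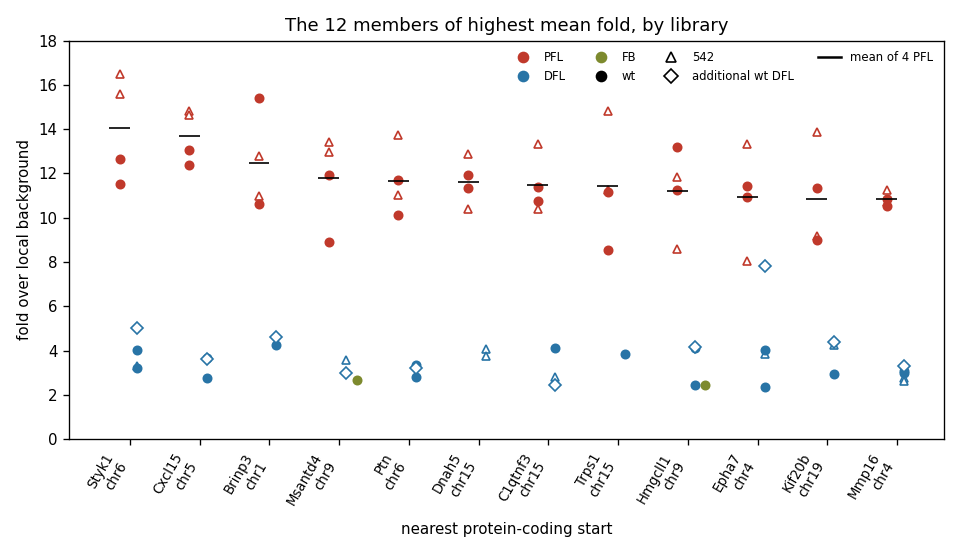
Fold over local background (y axis) of the 12 PFL-listed regions of highest mean fold, named by nearest coding start and chromosome (x axis). Filled circles are wt, open triangles 542 and open diamonds the additional wt DFL library, with PFL in red, DFL in blue, FB in green and black lines for the mean of the 4 PFL libraries. A library without a symbol had no call there. The PFL values lie between 8.07 and 16.51, and every DFL or FB symbol lies below the PFL values of its region, the additional library at Epha7 coming nearest at 7.82. For the DFL and FB groups this order follows largely from the choice of regions.

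Absence from a list of 50000 is not closed chromatin. Among all deposited calls, 1585 PFL-listed regions (77.5%) were called at a lower rank in at least 1 DFL or FB library, 1536 (75.1%) in a DFL library and 349 (17.1%) in an FB library, and 461 (22.5%) in none. The name of regions open only in the proximal forelimb holds for these 461 at most, or for 326 when the additional wt DFL library is counted too. All 4 DFL libraries had a call at 253 regions (12.4%) and all 4 FB libraries at 45. At the 253 regions the PFL mean fold was a median of 1.71 times the DFL mean fold (10th to 90th percentile 1.40 to 2.24), and at 58 of them it was above 2 times. As the rule puts these DFL calls at a lower rank, a ratio above 1 is largely fixed by the choice.

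The share called differed with genotype and depth. In wt DFL 59.8% and 50.2% of the PFL-listed regions were called at any rank, and in 542 DFL 31.0% and 30%, where all merged regions were called at 68.5%, 64.2%, 60.4% and 60.6%. This was not particular to them, as DFL-listed regions went the same way in PFL. They were called at 49.6% and 46.4% in wt PFL and at 32.3% and 26.4% in 542 PFL. Tags numbered 54.5 and 44.1 M (M for mega) in wt DFL and 41.4 and 40.2 M in 542 DFL, and the part of depth was not tested. FB libraries, with 51.4 to 70.7 M tags, had calls at 7.09% to 10.9%, against 57.5% to 61.2% of all merged regions. The additional wt DFL library, with 78.0 M tags, had calls at 63.0% (all merged regions 69.4%) and listed 13.5% of them among its own 50000 strongest, against 81.5% of DFL-listed, 1.77% of FB-listed and 41.7% of all merged regions. Its fold was above the lowest PFL value at 353 PFL-listed regions (17.3%) and above all 4 at 144 (7.04%), though its folds also ran higher in general, with a median of 9.11 in its list against 6.19 to 6.91 in the PFL lists.

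**Figure D5:**
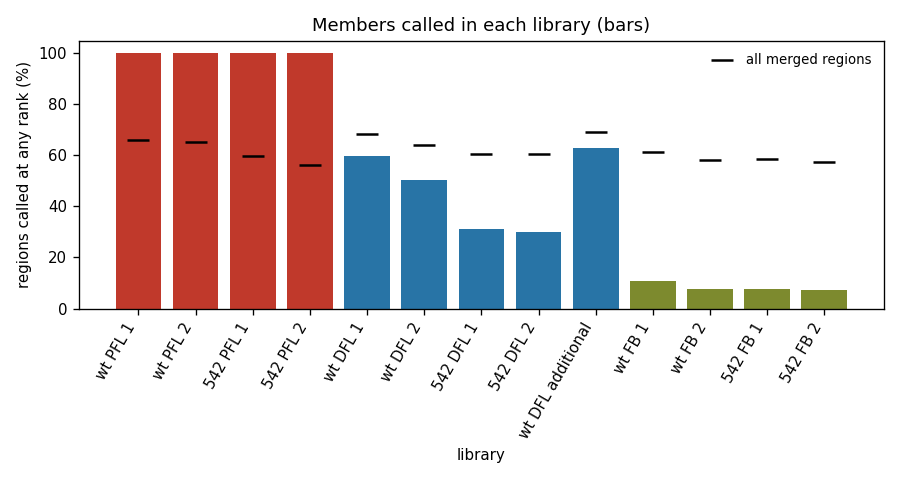
Share of PFL-listed regions called at any rank (bars, y axis, %) in each of 13 libraries (x axis; PFL red, DFL blue, FB green), with black lines for all merged regions. The 4 PFL bars are at 100% by choice, DFL bars are between 30% and 63.0%, and FB bars are between 7.09% and 10.9%.

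The rank limit cuts through a continuum. Just inside were a region in an intron of Susd4 (weakest PFL rank 49998, folds 5.47, 4.52, 6.73 and 4.99 in wt and 542 PFL) and one in an intron of Mgat4c (4.51, 4.38, 5.65 and 5.83). Just outside were regions in introns of Ntrk2 (5.22, 6.41, 8.83 and 5.09) and Themis (7.08, 5.21, 7.13 and 8.59), each kept out by a DFL list. A further 2013 regions were in 3 PFL lists and no other, and 983 in all 4 PFL lists and 1 other.

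Regions were also picked in 1 genotype and looked up in the other. Of 5097 regions in both wt PFL lists and no wt DFL or FB list, 2046 (40.1%) had the pattern in 542, against 5.08% of all merged regions, and 24 had the DFL pattern. In the other direction 35.8% of 5715 held, against 4.53%. The regions that held are the PFL-listed ones in both directions, as the rule asks for both genotypes. These shares therefore describe how far the lists overlap. Both PFL lists of the genotype read held 49.1% and 58.4% of the chosen regions. The shares of all merged regions are not limited to regions in PFL lists. With 1 library left out of the choice, the left-out PFL libraries listed 75.5% to 82.3% of the regions chosen by the others, and the left-out wt DFL libraries 13.2% and 13.6%, 542 DFL 7.55% and 5.41% and FB 0.631% to 0.872%. All merged regions were listed at 43.0% to 43.9%, without regard to the other lists. The regions found in a left-out PFL library are again the PFL-listed ones.

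Whether allele 542 changed these regions within PFL was tested on the log2 fold of all 33411 regions in the 4 PFL lists, with 2 wt against 2 542 libraries, and the choice of regions used no difference between genotypes. With limma, none of the 2046 PFL-listed regions passed an adjusted p of 0.05, the smallest being 0.192. Of all regions tested 0.00599% were called higher in wt and 0% higher in 542. At an unadjusted p under 0.05 there were 243 PFL-listed regions (11.9%), close to 10.4% of all tested. Their difference, wt minus 542, had a median of -0.03 on the log2 scale (5th to 95th percentile -0.47 to 0.44, median SE 0.20), and wt was higher in 45.9%, against 48.7% of all tested.

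Another scale gave some calls. On log2 tags per M of the library total, limma called 22 PFL-listed regions, 7 higher in wt (0.342%) and 15 higher in 542 (0.733%), against 0.536% and 0.836% of all regions tested in these directions. A region in an intron of Sgcd, the gene of a sarcoglycan of the muscle membrane, had 93 and 95 tags in wt and 33 and 33 in 542, with folds of 10.49 and 9.70 against 6.73 and 6.46. The region nearest to Camk2d, a calcium-dependent kinase gene, had 107 and 98 tags in wt and 39 and 36 in 542.

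In the other direction Styk1 had 117 and 109 tags in wt PFL and 176 and 166 in 542 PFL. A region in an intron of Agmo, a lipid-cleaving monooxygenase gene, had 44 and 61 against 88 and 70. These 4 regions were picked because limma called them on tags, so their separation in tags is no finding. The limma test on fold did not call them, with adjusted p of 0.301 for Sgcd, 0.324 for Camk2d, 0.261 for Styk1 and 0.429 for Agmo. The wt PFL libraries held 48.8 and 52.7 M tags and the 542 PFL libraries 37.9 and 37.5 M, and the tags printed here are not scaled to these totals.

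The tissue labels were checked at gene starts. Hoxd13 and Hoxa13 had folds of 8.67 to 9.78 and 8.80 to 10.1 in DFL against 3.40 to 4.97 and 4.56 to 6.38 in PFL, and Emx1, a forebrain gene, had 6.73 to 8.18 in FB. The start of Myog was at 5.64 to 7.23 in PFL, at most 3.59 in DFL and not called in FB. Other muscle regulators did not separate in this way at their starts, with Myod1 at 3.44 to 4.92 in PFL, 4.45 to 6.04 in DFL and 3.69 to 5.99 in FB. Myf5 was at 2.70 to 3.51 in PFL and reached 6.02 in DFL, and Pax3 was at 2.93 to 3.93 in PFL, 2.35 to 3.54 in DFL and 2.71 to 4.48 in FB. Tags per library, estimated from the calls, were 37.5 to 78.0 M.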

How the data were processed

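Chromatin accessibility was measured by ATAC-seq in DFL, PFL and FB of wt and 542 embryos, 2 libraries per group, plus an additional wt DFL library. Per the labels and methods, the authors trimmed reads with cutadapt, aligned them with Bowtie to mm10 or, for 542, to a genome with the insertion, kept alignments of mapping quality 30 or more, removed duplicates with Picard, turned read ends into tags with bedtools, and called peaks per library with MACS2 on tags centred on the Tn5 insertion, without control. The deposited fold is a ratio of tags under a summit to the background of the same library, with a small constant added to both. At part of the regions that background is a level shared over the library. The deposited −log10 p and −log10 q are from the peak caller. The score that the authors deposited beside it carries −log10 q as an integer and was left aside.

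For each library the 50000 strongest regions by −log10 q, then fold, were kept on chromosomes 1 to 19, chromosome 2 only below 75 Mb. Lists were merged, and 1 bp of overlap counted as presence. Other calls were read as lower-rank calls. The fold of a region is that of its best-ranked call in a library. Total tags, 37.5 to 78.0 M (mega), were estimated from fold and p, since no read total was used. Tags were recovered as whole numbers within a tolerance of 0.001 for 99.3% to 100.0% of calls. At this depth a missing call is no proof of closed chromatin. No 2 PFL replicate files were alike: of 2046 regions, 0 had equal folds in the wt pair and 2 in the 542 pair.

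Regions were annotated by GENCODE M21 on GRCm38, where the printed sequence also comes from. Tests were two-sided, with limma 3.58.1 (R 4.3.3) on quantile-normalized log2 fold, trend and Benjamini-Hochberg adjustment over all 33411 regions. On tags, log2 of tags per M plus 1 was used. The procedure was also run on simulated data, with the same spread for every region. The differences planted there were larger than any seen between genotypes on fold at PFL-listed regions, so the run says nothing on smaller ones. Python 3.11.15, numpy 2.4.6, pandas 2.3.3, scipy 1.17.1, pysam 0.24.0 and matplotlib 3.10.9 were used. Labels name replicates and the methods name pools of embryos, so p-values measure the spread between pools.

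The PFL-listed regions, the 11 gene lists, the 18 motifs and the tests were chosen with earlier results of these data known. Named are the 12 regions of highest mean fold, up to 3 per gene list, the 8 genes nearest to most regions, 4 promoter regions, up to 4 per direction called between genotypes (here, 2 per direction called on tags), 2 on each side of the rank limit, and up to 8 printed windows. Chromosome 2 from 75 Mb and chromosome X were left out of the choice, so Meis2, Ttn and Actc1 are not covered.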

Additional observations from a re-analysis of the deposited data

Results flagged for a closer look

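Chromosome X lay outside the rule. Taken by the same steps from the 50000 strongest regions of all chromosomes, 43 of 2795 merged regions of chromosome X (1.54%) were in all 4 PFL lists and in no DFL or FB list, against 1.82% on the chromosomes used. The cause of the difference was not tested.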

How the results depend on the processing

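The number of PFL-listed regions depends on the lists. It was 544 with the 20000 strongest regions, 1305 with a fold of at least 5, 5108 with wt libraries alone, 5832 with 542 libraries alone, and 4270 to 4575 without replicate 1 or 2. The share of regions chosen in wt that held in 542 was 36.5% with the 20000 strongest, 28.0% with all deposited regions, and 45% when chosen in replicate 1 and read in replicate 2. From 542 to wt it was 32.5% with the 20000 strongest, and 48.4% when chosen in replicate 2 and read in replicate 1. The additional wt DFL library overlapped 0.489% of the PFL-listed regions with its 20000 strongest and 63.0% with all its regions. Lower-rank calls were at 66.4% with a fold of at least 3 and at 73.5% where the call had to contain the summit. The promoter share was 2.79% within 2 kb and 5.23% with starts of all annotated genes.

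Between genotypes, limma called 22 PFL-listed regions and 458 of all tested on tags per M, 1 of all tested without normalization, and 7 among regions called at any rank in all PFL libraries. Leaving out 1 library each left 0 to 5 of all tested, with 0 without wt replicate 1 or wt replicate 2 and 5 without 542 replicate 1, where the lone sample is assumed to vary like the others. Replicate numbers are not stated to pair the samples, and the deviations of same-numbered libraries correlated at r = 0.00942 in 2 pairs. With a replicate block 13 of all tested and 0 PFL-listed regions were called. The cause was not tested in any of these.

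Alternatives added after seeing the data concern the motifs. The share of windows with CAGCTG was 39.2% and 39.6% with the 20000 strongest or all deposited regions, 34.4% with wt libraries alone and 35.6% with 542 libraries alone, and that of TAATTA was 4.44% to 5.48% in these. Windows of 200 and 400 bp gave 33.4% and 41.6% for CAGCTG and 2.88% and 7.67% for TAATTA. Leaving out the regions listed in the additional wt DFL library was added in the same way, and so was the range of GC. Within 100 kb in place of the nearest start, the muscle list had 21 regions (1.03% against 0.411% of all merged regions), connective tissue 11 (0.538% against 0.343%), proximal patterning 3 (0.147% against 0.214%) and distal limb 0 (against 0.206%), on the same side of all merged regions as before. Cartilage (7 regions), signalling (10), vessel (5), blood (1) and nerve sheath (1) lists changed side.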
